A study of Mus musculus with 24 samples.

Results

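The genes described here are 32 transcripts known from splenic macrophages, read in B cells that had been sorted from the mouse spleen. They were chosen by name, as every probe set that the platform's annotation gives to only 1 of these genes, which found 47 of 45101 probe sets and 32 of 18193 genes. Several of them had been picked because they were high in the NOD arrays labelled FO and in some B6 arrays, so their values in those arrays are a description. Counts of calls on those arrays are given only beside the share over all probe sets, with no p-value for these genes, and support nothing. Each gene was represented by its most variable probe set (standard deviation over all 24 arrays). For 21 genes there was only 1 such probe set, and 11 genes had several.

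The study compared splenic B cell subsets of NOD/ShiLtJ mice (NOD), a strain that develops autoimmune diabetes, with those of C57BL/6/J mice (B6), all female and 7 weeks old and with no treatment named. Spleen cells of 8 mice of a strain were pooled, freed of red cells, depleted of CD3+ and CD11b+ cells with magnetic beads, and then sorted (gates on CD23, CD93, B220, CD24, CD21/35 and IgM) into transitional cells (T1, T3), follicular cells (FO) with their T2FO precursors and marginal zone cells (MZ) with their T2MZ precursors. A repeat experiment gave a duplicate of each of the 12 groups, so that 24 Affymetrix Mouse Genome 430 2.0 arrays trace back to 4 pools. Each sample was a bulk RNA sample, in which fewer cells of a type and less RNA per cell cannot be told apart.

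The values are log values, taken as base 2, centred on each probe set's own median over the 24 arrays. A value of 0 is therefore the middle array of that probe set and not a lack of signal, and levels cannot be compared between genes. Array medians over all probe sets lay between -0.039 and 0.059. The NOD subset labels did not follow the sort markers. Cd93, which marks immature B cells, stood at 3.14 and 2.98 in B6 T1 but -2.04 and -2.14 in the NOD arrays labelled T1, where Cr2 (the gene of CD21 and CD35) was highest of the NOD arrays, at 1.24 and 1.16. In the NOD arrays labelled FO, Cr2 was 0.04 and -0.15, near the -0.01 and 0.11 of B6 FO. It was as near in the NOD arrays labelled T2MZ (0.04 and 0.01), so Cr2 does not settle whether the label FO holds. NOD groups are named by their labels only. Nnt, which carries a deletion in C57BL/6J, was below all NOD arrays (-0.11 to 0.52) in 10 B6 arrays, while those of B6 FO replicate 2 (0.30) and B6 MZ replicate 2 (0.03) had values like those of NOD. These same 2 arrays had a difference between the 5' and 3' beta-actin control probe sets (0.41 and 0.42) like that of NOD, against -3.94 to -0.59 in the remaining 10 B6 arrays. Both are named by their label B6, and every reading of them as B6 carries this doubt.

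Macrophages of the splenic red pulp engulf aged red cells, break down their haem and release the iron to the blood, and the transcription factor Spi-C is needed for their development. Other splenic macrophages sit in the marginal zone, where Marco and Siglec1 mark separate populations, or clear dying cells inside follicles. C1q, made largely by macrophages, is the recognition unit of the classical complement pathway. Spic and Mpeg1 are also known to be expressed by B cells, so these genes are not specific to macrophages.

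Many macrophage genes depend on PU.1, a factor that B cells also use, and PU.1 and Spi-C both bind around the core GAGGAA. This core was looked for on both strands in the 250 bases before starts held for each gene in RefSeq (GRCm38.p6). Some of these starts, as for Fcgr3, Fcna and Apoe, lie inside the gene. Windows were held for 22 of the 32 genes, 26 windows in all. The core was in 18 of these windows, from 15 genes, and in 23.3% of 32851 windows of 27025 genes. Windows are not independent: those of Clec7a overlap and hold the same core, as do those of Fcgr3. The AP-1 motif TGANTCA, searched likewise, was in 2 of the 26 windows, those of Cd68 and Itgax, and in 6.75% of all windows. The windows below belong to genes with different patterns on the arrays: C1qb, Mrc1 and Mertk were high in the NOD arrays labelled FO, Lyz2 was high in 1 B6 array only, and Itgam stayed near 0. Capitals mark the core, written TTCCTC where it lies on the other strand.
C1qb: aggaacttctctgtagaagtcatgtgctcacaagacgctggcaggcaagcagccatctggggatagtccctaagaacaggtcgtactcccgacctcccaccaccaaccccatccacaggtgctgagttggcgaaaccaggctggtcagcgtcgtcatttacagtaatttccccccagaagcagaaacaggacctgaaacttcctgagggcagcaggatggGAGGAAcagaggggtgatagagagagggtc
Mrc1: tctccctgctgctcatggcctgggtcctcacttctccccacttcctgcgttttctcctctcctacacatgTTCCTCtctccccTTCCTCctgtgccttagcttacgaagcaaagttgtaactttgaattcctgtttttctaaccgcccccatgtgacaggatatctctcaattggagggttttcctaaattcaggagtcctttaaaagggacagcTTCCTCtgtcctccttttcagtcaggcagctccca
Mertk: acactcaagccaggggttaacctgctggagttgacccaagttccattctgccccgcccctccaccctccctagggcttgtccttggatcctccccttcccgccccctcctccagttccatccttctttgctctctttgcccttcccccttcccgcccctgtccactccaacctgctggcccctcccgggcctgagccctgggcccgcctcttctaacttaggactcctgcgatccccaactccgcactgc
Lyz2: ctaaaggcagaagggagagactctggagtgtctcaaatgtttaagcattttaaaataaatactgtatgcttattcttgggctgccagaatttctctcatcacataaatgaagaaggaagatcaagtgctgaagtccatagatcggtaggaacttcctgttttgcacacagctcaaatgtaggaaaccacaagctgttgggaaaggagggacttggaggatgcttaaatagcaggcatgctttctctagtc
Itgam: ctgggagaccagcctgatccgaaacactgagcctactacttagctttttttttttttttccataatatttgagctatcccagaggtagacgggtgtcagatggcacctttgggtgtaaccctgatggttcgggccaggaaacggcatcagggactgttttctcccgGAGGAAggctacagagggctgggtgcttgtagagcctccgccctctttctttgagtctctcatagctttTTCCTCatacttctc

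Positions are those of the first base of the core relative to the start, the last base of a window being -1. C1qb (chr4:136886201-136886450, minus strand) held 1 core, at -30. Mrc1 (chr2:14229164-14229413, plus strand) held 3 cores, at -180, -167 and -35. Itgam (chr7:128062390-128062639, plus strand) held 2, at -84 and -15. The windows of Mertk (chr2:128698665-128698914, plus strand) and Lyz2 (chr10:117282273-117282522, minus strand) did not hold these letters. The core was thus found in a gene that stayed near 0 as well as in genes that were high, and such a match is a description and not a binding site.

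The 32 genes were high together on 3 of the 24 arrays. Their median was 2.46 and 2.01 in the NOD arrays labelled FO, where 23 and 24 of them lay above 1. It was 1.79 in replicate 2 of B6 MZ, where 22 lay above 1, and -0.10 in replicate 1 of the same group. On the other 21 arrays the median ran from -0.25 to 0.45, with 10 genes above 1 in replicate 2 of B6 FO, 8 each in replicate 2 of B6 T2FO and of B6 T3, 5 in replicate 2 of the NOD arrays labelled T2MZ, and at most 4 elsewhere.

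**Figure D1:**
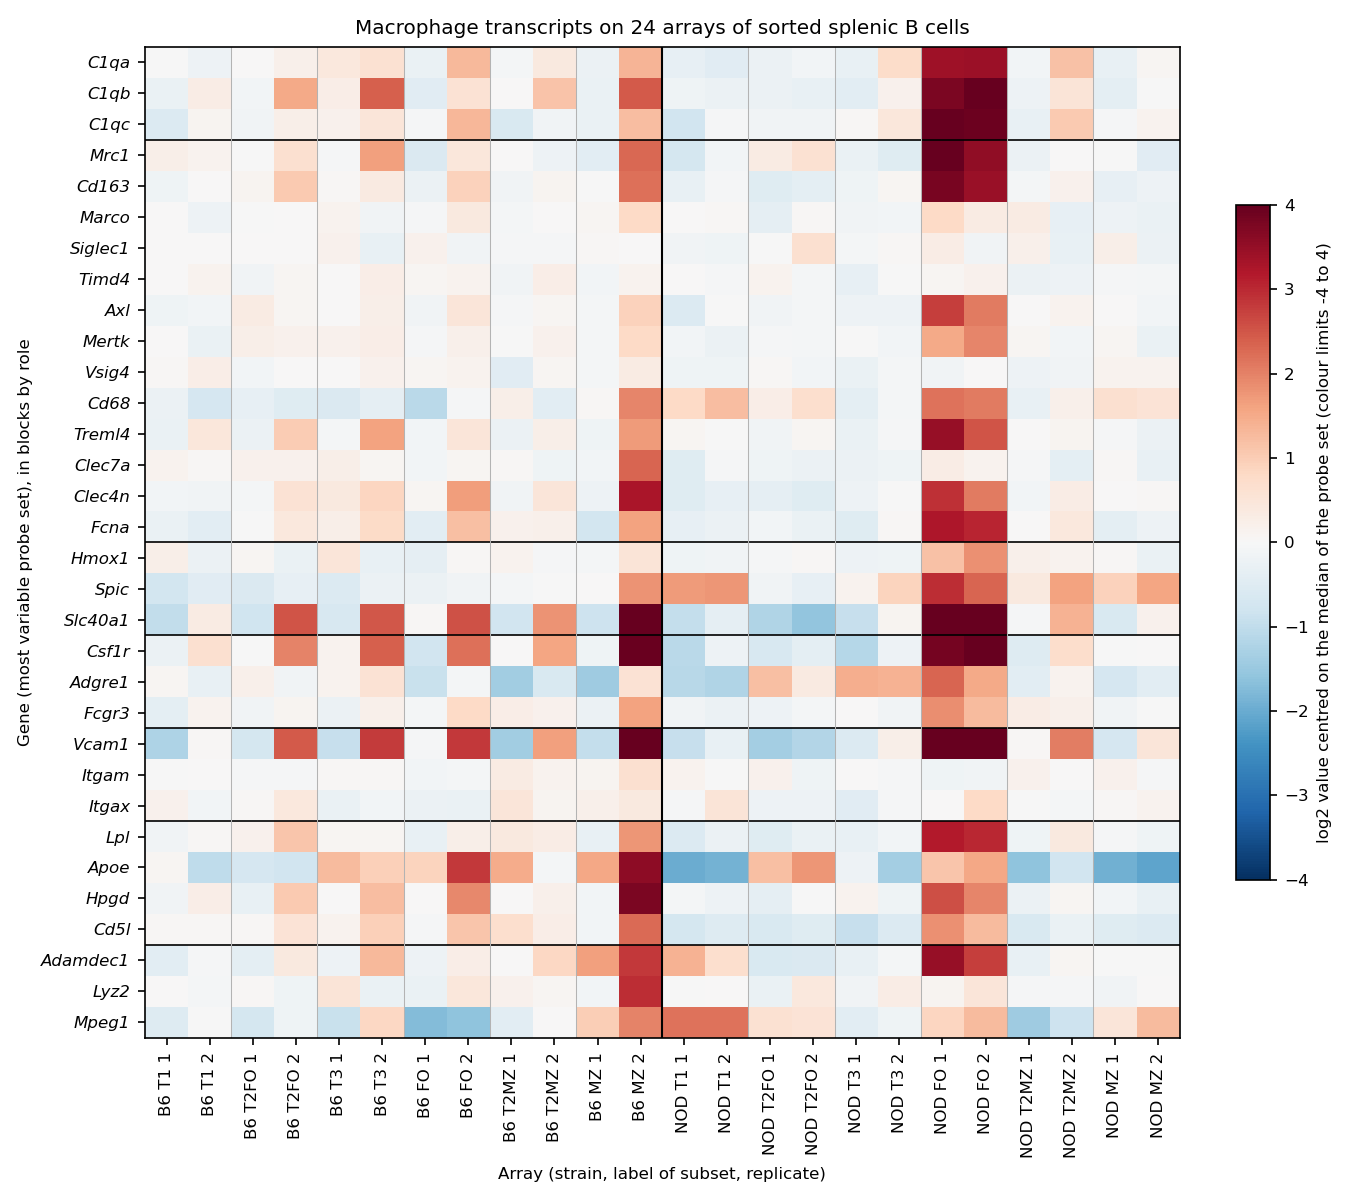
Centred log2 values of the 32 genes (rows, most variable probe set, in blocks by role) on 24 arrays (columns), red above and blue below the median of the probe set. The NOD arrays labelled FO and replicate 2 of B6 MZ carry most of the red, with medians of 2.46, 2.01 and 1.79, and Siglec1, Timd4, Vsig4 and Itgam are pale throughout.

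In the NOD arrays labelled FO, 18 of the 47 probe sets were called higher than in the other 5 NOD groups and 0 lower (limma, Benjamini-Hochberg adjusted p under 0.05). Over all 45037 probe sets tested, 0.158% were called higher and 0.00444% lower. The arrays labelled FO helped to choose these genes, so nothing is read from the excess. The median difference was 1.85 over the 47 probe sets and 2.17 over the 32 genes, against -0.01 over all probe sets. Both arrays labelled FO lay above the other 22 arrays for 20 of 47 probe sets and 15 of 32 genes, and for 0.38% of all probe sets. Against the 10 other NOD arrays alone this held for 32 of 47 probe sets and 23 of 32 genes, and for 1.29% of all probe sets. The count called rests on both arrays of the group, being 5 without replicate 1 and 9 without replicate 2, when the lone array is assumed to vary as the other groups do. With the replicate number of each strain as a block it was 23, and the most variable probe sets of Vcam1, Slc40a1, Csf1r, Clec4n, Fcgr3 and Cd5l, not called without the block, were called. The standard errors given below are without the block. With it they fell from 1.28 to 0.54 for Vcam1, from 1.20 to 0.55 for Slc40a1 and from 0.92 to 0.43 for Csf1r.

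The 3 chains of C1q, which assemble into the hexameric recognition molecule, were high on the same arrays. In B6, C1qa was -0.03 and -0.21 in T1, 0.03 and 0.19 in T2FO, 0.43 and 0.61 in T3, -0.27 and 1.30 in FO, -0.09 and 0.39 in T2MZ and -0.24 and 1.37 in MZ. The NOD arrays, by label, gave C1qa values of -0.32 and -0.44 in T1, -0.24 and -0.10 in T2FO, -0.30 and 0.72 in T3, 3.39 and 3.41 in FO, -0.10 and 1.17 in T2MZ and -0.30 and 0.08 in MZ. Both NOD arrays labelled FO lay far above the others, of which 3 passed 1.

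In B6, C1qb was -0.27 and 0.30 in T1, -0.11 and 1.52 in T2FO, 0.26 and 2.40 in T3, -0.46 and 0.59 in FO, 0.03 and 1.15 in T2MZ and -0.26 and 2.44 in MZ. C1qb in the NOD arrays, by label, was -0.18 and -0.23 in T1, -0.22 and -0.30 in T2FO, -0.42 and 0.17 in T3, 3.75 and 3.97 in FO, -0.20 and 0.50 in T2MZ and -0.39 and -0.03 in MZ. By this probe set, all of the B6 arrays above 1 were replicate 2 arrays, and none reached the NOD arrays labelled FO. By its other probe sets, only replicate 2 of B6 MZ passed 1 in B6, with 2.62 and 1.37. Replicate 2 of B6 T2FO, T3 and T2MZ held -0.28, 0.15 and -0.36 by the former and 0.37, 0.84 and 0.35 by the latter. The differences of the 3 probe sets of C1qb were 2.91 to 4.07.

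In B6, C1qc was -0.55 and 0.12 in T1, -0.13 and 0.22 in T2FO, 0.16 and 0.49 in T3, -0.05 and 1.34 in FO, -0.62 and -0.15 in T2MZ and -0.26 and 1.24 in MZ. By label, the NOD arrays held -0.76 and -0.04 in T1, -0.14 and -0.14 in T2FO, 0.04 and 0.44 in T3, 4.24 and 3.92 in FO, -0.30 and 1.04 in T2MZ and -0.06 and 0.13 in MZ. Replicate 2 of B6 FO, of B6 MZ and of the NOD arrays labelled T2MZ stood between the 2 highest arrays and the rest. The mean of C1qa in the NOD arrays labelled FO was 3.40 ± 0.01 (SD, n = 2) and 3.39 ± 0.42 (SE) above the mean of the other 5 NOD groups. The same difference was 3.99 ± 0.62 for C1qb and 4.06 ± 0.40 for C1qc, a 16.7-fold ratio if the log base is 2. The 3 genes lie side by side on chromosome 4, between 136880126 and 136898844 (GRCm38.p6).

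The 13 scavenger, phagocytic and pattern receptors varied widely. Mrc1 encodes the macrophage mannose receptor. In B6, Mrc1 was 0.22 and 0.13 in T1, -0.02 and 0.65 in T2FO, -0.06 and 1.65 in T3, -0.59 and 0.45 in FO, 0.01 and -0.21 in T2MZ and -0.41 and 2.30 in MZ. In NOD, by label, Mrc1 was -0.69 and -0.10 in T1, 0.33 and 0.61 in T2FO, -0.26 and -0.47 in T3, 4.02 and 3.56 in FO, -0.24 and 0.03 in T2MZ and -0.01 and -0.45 in MZ. Only the NOD arrays labelled FO passed 3, and replicate 2 of B6 MZ and of B6 T3 were next. The difference from the other NOD groups was 3.92 ± 0.52.

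Cd163, the receptor for haemoglobin bound to haptoglobin, had a similar pattern. In B6, Cd163 was -0.18 and 0.03 in T1, 0.11 and 1.04 in T2FO, 0.04 and 0.37 in T3, -0.24 and 0.92 in FO, -0.14 and 0.11 in T2MZ and -0.03 and 2.19 in MZ. The NOD arrays, by label, gave Cd163 values of -0.29 and -0.06 in T1, -0.49 and -0.39 in T2FO, -0.16 and 0.07 in T3, 3.81 and 3.45 in FO, -0.08 and 0.17 in T2MZ and -0.32 and -0.20 in MZ. Outside the arrays labelled FO no NOD array passed 0.17, while replicate 2 of B6 MZ stood at 2.19. The difference was 3.80 ± 0.40.

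Axl and Mertk are receptor kinases that bind dying cells through bridging proteins. In B6, Axl was -0.17 and -0.10 in T1, 0.34 and 0.08 in T2FO, 0.03 and 0.24 in T3, -0.14 and 0.49 in FO, -0.04 and 0.07 in T2MZ and -0.08 and 0.92 in MZ. Axl in the NOD arrays, by label, was -0.54 and -0.02 in T1, -0.14 and -0.09 in T2FO, -0.20 and -0.20 in T3, 2.78 and 2.08 in FO, 0.03 and 0.14 in T2MZ and 0.02 and -0.12 in MZ. In B6, Mertk was 0.01 and -0.26 in T1, 0.22 and 0.17 in T2FO, 0.17 and 0.25 in T3, -0.05 and 0.19 in FO, -0.01 and 0.16 in T2MZ and -0.09 and 0.80 in MZ. By label, the NOD arrays held -0.12 and -0.25 in T1, -0.05 and -0.07 in T2FO, -0.03 and -0.12 in T3, 1.50 and 1.95 in FO, 0.08 and -0.10 in T2MZ and 0.08 and -0.26 in MZ. For both genes the arrays labelled FO in NOD were above 1 and all 22 others below it. The differences were 2.54 ± 0.23 for Axl and 1.81 ± 0.18 for Mertk. The other Axl probe set differed by only 0.10.

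Treml4, a receptor of the Trem family found on splenic macrophages and dendritic cells, was high on the same arrays. In B6, Treml4 was -0.28 and 0.46 in T1, -0.24 and 1.02 in T2FO, -0.08 and 1.61 in T3, -0.11 and 0.47 in FO, -0.24 and 0.22 in T2MZ and -0.17 and 1.69 in MZ. In NOD, by label, Treml4 was 0.09 and -0.01 in T1, -0.13 and 0.09 in T2FO, -0.26 and -0.05 in T3, 3.47 and 2.50 in FO, 0.01 and 0.10 in T2MZ and -0.04 and -0.25 in MZ. The arrays in NOD labelled FO were clear of the others, followed by replicate 2 of B6 MZ, B6 T3 and B6 T2FO. Its difference was 3.03 ± 0.46.

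Fcna encodes ficolin A, a soluble lectin that activates complement. In B6, Fcna was -0.28 and -0.41 in T1, -0.01 and 0.42 in T2FO, 0.23 and 0.75 in T3, -0.43 and 1.20 in FO, 0.17 and 0.21 in T2MZ and -0.72 and 1.62 in MZ. The NOD arrays, by label, gave Fcna values of -0.33 and -0.25 in T1, -0.11 and -0.28 in T2FO, -0.47 and 0.04 in T3, 3.22 and 3.06 in FO, 0.01 and 0.43 in T2MZ and -0.38 and -0.21 in MZ. Again 2 B6 arrays lay above 1, both of them replicate 2. The difference of Fcna was 3.29 ± 0.44.

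The other 7 receptors are given more briefly. Clec4n, which encodes the C-type lectin dectin-2, stood at 2.92 and 2.09 in the NOD arrays labelled FO and at 3.26 in replicate 2 of B6 MZ, so these arrays overlapped. Cd68, an endosomal glycoprotein, was 2.16 and 2.09 in the former and 1.95 in the latter. Marco, a scavenger receptor of marginal zone macrophages, reached 0.81 and 0.32, Timd4, a receptor for phosphatidylserine, 0.09 and 0.18, Siglec1, the sialic acid receptor of metallophilic macrophages, 0.31 and -0.13, and Vsig4, a complement receptor, -0.13 and 0.01. Clec7a, the beta-glucan receptor dectin-1, was 0.29 and 0.14. Marco differed from the other NOD groups by 0.66 ± 0.20, the other NOD arrays reaching 0.32 and replicate 2 of B6 MZ 0.81. Siglec1 differed by 0.08 ± 0.19, and the arrays labelled FO did not stand apart for it. The remaining probe sets of Marco and Siglec1 differed by 0.34 or less. As the values hold no levels, the absence of marginal zone or metallophilic macrophages cannot be read from them.

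Haem and iron genes were high in the same arrays. Hmox1 encodes haem oxygenase, which opens the haem ring. In B6, Hmox1 was 0.24 and -0.23 in T1, 0.08 and -0.27 in T2FO, 0.49 and -0.29 in T3, -0.37 and 0.06 in FO, 0.15 and -0.05 in T2MZ and -0.08 and 0.53 in MZ. Hmox1 in the NOD arrays, by label, was -0.17 and -0.14 in T1, -0.04 and 0.04 in T2FO, -0.21 and -0.17 in T3, 1.16 and 1.84 in FO, 0.21 and 0.15 in T2MZ and 0.05 and -0.26 in MZ. The NOD arrays labelled FO were the only arrays above 1, and replicate 2 of B6 MZ reached 0.53. The difference was 1.56 ± 0.22.

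Spic encodes the transcription factor of red pulp macrophages. In B6, Spic was -0.73 and -0.44 in T1, -0.57 and -0.34 in T2FO, -0.55 and -0.23 in T3, -0.24 and -0.13 in FO, -0.08 and -0.02 in T2MZ and 0.02 and 1.79 in MZ. By label, the NOD arrays held 1.69 and 1.75 in T1, -0.13 and -0.32 in T2FO, 0.14 and 0.88 in T3, 2.94 and 2.32 in FO, 0.38 and 1.61 in T2MZ and 0.91 and 1.59 in MZ. By this probe set the NOD arrays labelled FO were highest, but NOD arrays labelled T1, T3, T2MZ and MZ also lay above most B6 arrays. The difference was 1.78 ± 0.37, and 0.93 for the other probe set of Spic. By that probe set, replicate 1 of the NOD arrays labelled FO (1.03) lay below the arrays labelled T1 (1.10 and 1.27).

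Slc40a1 encodes ferroportin, the channel through which macrophages export iron. It was 4.97 and 4.37 in the NOD arrays labelled FO, -1.57 to 1.40 in the 10 other NOD arrays and -0.97 to 4.65 in B6. The highest B6 value, of MZ replicate 2, lay between the 2 NOD values. The difference was 5.07 ± 1.20, with the second largest error of the 32 genes, and 3.19 for its other probe set.

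Csf1r encodes the receptor for the growth factor that keeps macrophages alive. In B6, Csf1r was -0.22 and 0.63 in T1, -0.02 and 1.97 in T2FO, 0.14 and 2.40 in T3, -0.77 and 2.19 in FO, 0.03 and 1.58 in T2MZ and -0.18 and 3.96 in MZ. In NOD, by label, Csf1r was -1.08 and -0.21 in T1, -0.65 and -0.40 in T2FO, -1.13 and -0.20 in T3, 3.83 and 4.02 in FO, -0.53 and 0.70 in T2MZ and -0.03 and 0.02 in MZ. By this probe set, every B6 replicate 2 array lay above its replicate 1, and MZ replicate 2 fell between the NOD arrays labelled FO. By its other probe sets, MZ replicate 2 lay below both NOD arrays: 1.20 against 2.69 and 2.56, and 0.35 against 0.75 and 0.55. By the last of them, replicate 2 also lay below replicate 1 in B6 T1, T2FO, T3 and T2MZ. The difference was 4.28 ± 0.92, and the 3 probe sets ranged from 0.77 to 4.28. Adgre1, a surface marker of mature macrophages, was 2.34 and 1.50 in the NOD arrays labelled FO and up to 1.46 in those labelled T3. Fcgr3, a low-affinity IgG receptor, was 1.86 and 1.25, against 1.61 in replicate 2 of B6 MZ.

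Vcam1, an adhesion molecule of red pulp macrophages and stromal cells, had the largest difference of all probe sets in this comparison. It was 5.52 and 5.57 in the NOD arrays labelled FO, from -1.37 to 2.06 with a median of -0.42 in the 10 other NOD arrays, and from -1.38 to 4.59 with a median of 0.01 in B6. The difference was 5.76 ± 1.28, and the 3 probe sets ranged from 0.54 to 5.76. Vcam1 and Slc40a1 had a Pearson r of 0.99 over the 24 arrays, a pair chosen after their values were seen.

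Itgam encodes CD11b, the antigen used to remove myeloid cells before the sort. In B6, Itgam was -0.03 and 0.00 in T1, -0.05 and -0.06 in T2FO, 0.05 and 0.04 in T3, -0.11 and -0.07 in FO, 0.32 and 0.15 in T2MZ and 0.11 and 0.64 in MZ. The NOD arrays, by label, gave Itgam values of 0.14 and -0.02 in T1, 0.16 and -0.17 in T2FO, 0.00 and -0.06 in T3, -0.17 and -0.14 in FO, 0.17 and 0.01 in T2MZ and 0.16 and -0.05 in MZ. The highest value was 0.64, in replicate 2 of B6 MZ, and the NOD arrays labelled FO were at the low end. Itgax, which encodes CD11c, was 0.02 and 0.79 in those arrays and -0.44 to 0.51 in the other 22.

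**Figure D2:**
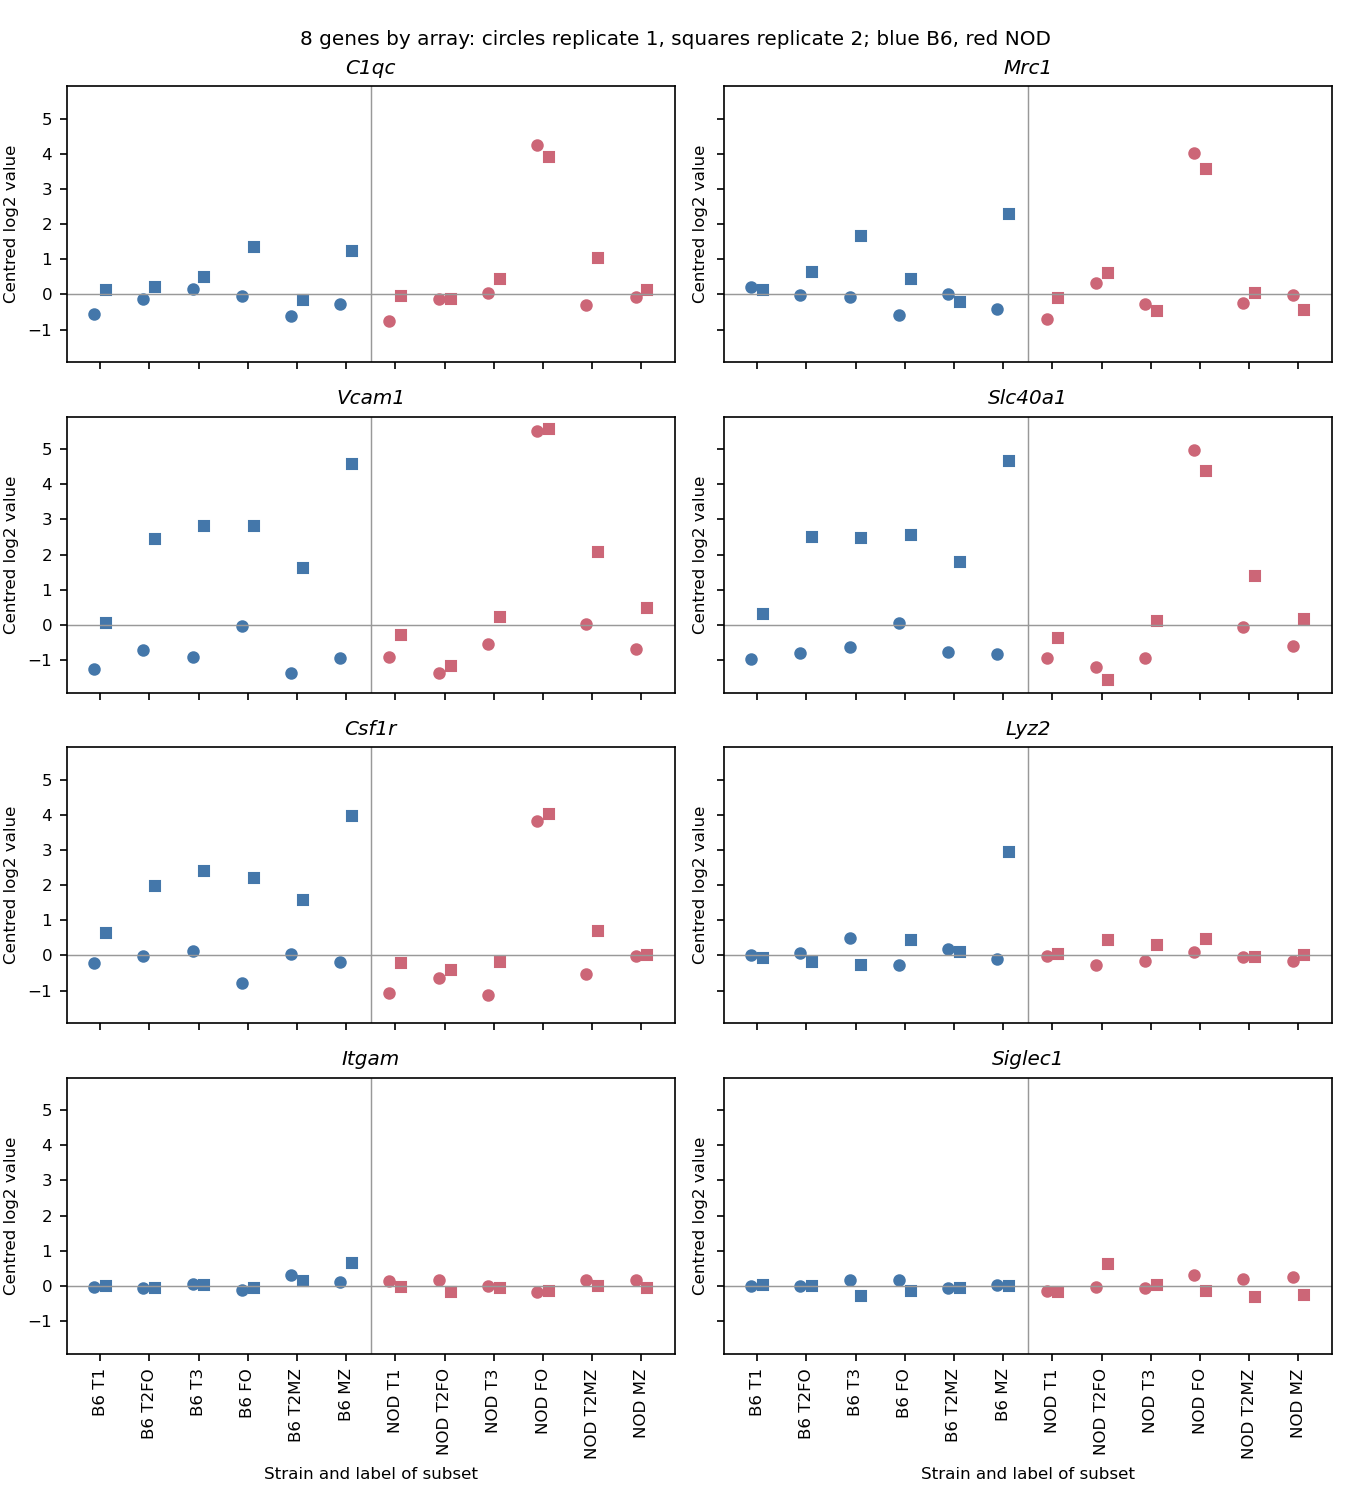
Centred log2 value (vertical axis) of 8 genes (most variable probe set) on each array, by strain and label (horizontal axis). Circles are replicate 1 and squares replicate 2. C1qc and Mrc1 stand out in the NOD arrays labelled FO, Vcam1, Slc40a1 and Csf1r also in replicate 2 of several B6 groups, Lyz2 in replicate 2 of B6 MZ alone (2.94), and Itgam and Siglec1 in none.

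Genes of lipid handling varied more. Lpl encodes lipoprotein lipase. In B6, Lpl was -0.14 and 0.06 in T1, 0.17 and 1.10 in T2FO, 0.08 and 0.08 in T3, -0.29 and 0.24 in FO, 0.39 and 0.29 in T2MZ and -0.29 and 1.78 in MZ. Lpl in the NOD arrays, by label, was -0.55 and -0.24 in T1, -0.48 and -0.27 in T2FO, -0.29 and -0.12 in T3, 3.17 and 3.02 in FO, -0.17 and 0.39 in T2MZ and -0.06 and -0.18 in MZ. After the NOD arrays labelled FO, only replicate 2 of B6 MZ and B6 T2FO passed 1. The difference of Lpl was 3.29 ± 0.36, and its other probe set differed by 0.44.

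Hpgd, which inactivates prostaglandins, was 2.59 and 1.94 in the NOD arrays labelled FO and 3.75 in replicate 2 of B6 MZ. Cd5l, a secreted macrophage protein also called AIM, was 1.84 and 1.26 there and 2.25 in that B6 array. Apoe, the lipid carrier apolipoprotein E, was 1.10 and 1.56, within the B6 range of -1.01 to 3.59. For these 3 genes the highest array was therefore a B6 array.

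The last group holds a protease, lysozyme and a pore protein. Adamdec1 encodes a secreted metalloprotease. In B6, Adamdec1 was -0.43 and -0.05 in T1, -0.39 and 0.38 in T2FO, -0.20 and 1.30 in T3, -0.20 and 0.27 in FO, 0.02 and 0.82 in T2MZ and 1.63 and 2.84 in MZ. By label, the NOD arrays held 1.40 and 0.66 in T1, -0.62 and -0.57 in T2FO, -0.30 and -0.07 in T3, 3.47 and 2.75 in FO, -0.29 and 0.09 in T2MZ and -0.03 and -0.02 in MZ. Replicate 2 of B6 MZ fell between the NOD arrays labelled FO. The difference was 3.08 ± 0.37. Lyz2, the lysozyme of macrophages and granulocytes, was 0.10 and 0.48 in the NOD arrays labelled FO. Mpeg1, which encodes the pore protein perforin-2, was 0.87 and 1.28, below the 2.17 and 2.16 of the NOD arrays labelled T1.

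Against B6 FO, the same NOD arrays were called higher for 22 of the 47 probe sets and lower for 0. Of all probe sets 1.48% were called higher and 1.4% lower, and again nothing is read from this since the rule used these arrays. The NOD arrays labelled FO enter this comparison and the one above. C1qc was 3.44 ± 0.52 higher than in B6 FO, Mrc1 3.86 ± 0.67, Cd163 3.29 ± 0.52 and Lpl 3.11 ± 0.46. Vcam1 was 4.16 ± 1.66 higher, and B6 FO held -0.04 and 2.82. Apoe differed by -0.54 ± 0.71, and by 0.43 without B6 FO replicate 2, an array chosen to be left out after its values were seen. In a fit of these 4 arrays alone 0 probe sets of the 47 were called, with 30 at an unadjusted p under 0.05 (limma). The count was 11 without B6 FO replicate 1 and 12 without either NOD array.

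Outside the arrays labelled NOD, the genes were highest in the array labelled B6 MZ replicate 2, whose Nnt value (0.03) lay in the NOD range. Against replicate 1, 22 of 32 genes and 29 of 47 probe sets (61.7%) were higher by more than 1, and so were 4.45% of all probe sets. These are 2 arrays, so the difference has no replicate check. Vcam1 differed by 5.54, Slc40a1 by 5.47 and Csf1r by 4.13. This array was the highest of the 12 B6 arrays for 27 of the 32 genes.

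The NOD arrays labelled FO and this B6 array shared most of the genes. Of the 32, 20 differed by more than 1 both from the other NOD groups and between the B6 MZ replicates, and 7 did so in neither: Marco, Siglec1, Timd4, Vsig4, Itgam, Itgax and Mpeg1. Axl, Mertk and Hmox1 passed 1 only in NOD. Between the B6 MZ arrays, Axl (1.00), Mertk (0.90) and Mpeg1 (0.99) lay close to that mark, and Hmox1 was at 0.61. Lyz2 (0.28 in NOD, 3.04 between the B6 MZ arrays) and Clec7a (0.42 and 2.45) passed it only in B6. Across the 32 genes Pearson's r was 0.71 and Spearman's rho 0.65. Of all probe sets, 0.155% passed 1 in both. Several genes had been picked as high in the NOD arrays labelled FO and in some B6 arrays. The count and the correlations are thus a description, and nothing is read from them.

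**Figure D3:**
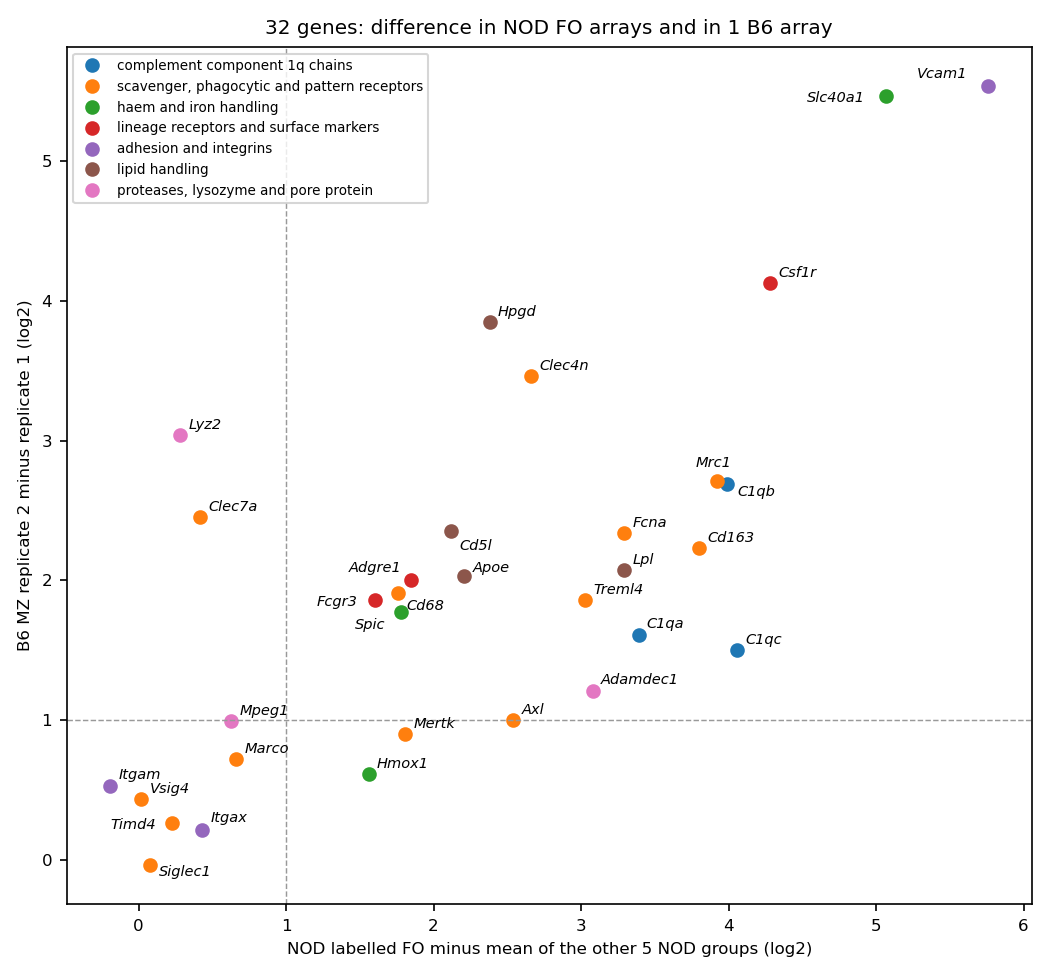
Difference of the NOD arrays labelled FO from the other 5 NOD groups (horizontal axis, log2) against replicate 2 minus replicate 1 of B6 MZ (vertical axis, log2), 1 point per gene, coloured by role, with dashed lines at 1. Vcam1 and Slc40a1 are at the upper right, Lyz2 and Clec7a at the upper left, and Axl, Mertk and Hmox1 lie right of the vertical line at or below the horizontal one.

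Smaller differences between replicates were seen in other groups. In B6 FO, replicate 2 was higher by more than 1 for 14 genes and 16 probe sets (34.0%), against 4.52% of all probe sets. In B6 T3 it held for 9 genes and 11 probe sets (23.4%), against 7.45% of all, and in B6 T2FO for 6 genes and 8 probe sets (17.0%), against 7.71%. In B6 T2MZ it held for 4 genes and 4 probe sets (8.51%), near the 7.25% of all. In the NOD arrays labelled T2MZ it held for 6 genes and 6 probe sets (12.8%), against 0.908%. By their most variable probe sets, Vcam1 and Csf1r were higher in replicate 2 in all 12 groups, and C1qc and Cd163 in 11. Slc40a1 showed the size of this split. Its replicate 2 was 2.51 in B6 T2FO, 2.48 in T3, 2.56 in FO and 1.80 in T2MZ. Replicate 1 was -0.79, -0.64, 0.05 and -0.77 there. The other Slc40a1 probe set split less, with 0.08 and 0.19 in B6 T2MZ. A further probe set of Vcam1 and of Csf1r went the other way in B6 T1, T2FO, T3 and T2MZ. In B6 T3 these held 0.56 and -0.16 for Vcam1 and 0.16 and 0.03 for Csf1r.

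The 5' minus 3' beta-actin difference was read beside these values. It was 0.42 and 0.41 in replicate 2 of B6 MZ and FO, and -3.94, -3.13 and -3.62 in replicate 2 of B6 T2FO, T3 and T2MZ, all of them arrays with raised genes. It was also low in B6 T1 replicate 2 (-3.61), FO replicate 1 (-3.19) and MZ replicate 1 (-3.09), where 0, 0 and 2 genes lay above 1. In NOD it was 0.59 and 0.45 in the arrays labelled FO and -0.68 to 0.63 in the others. With this difference as a covariate, 22 of the 47 probe sets were called higher in the NOD arrays labelled FO. It spanned less in NOD than in B6, so nothing is read from this count. Its part in the raised values was not tested.

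Markers of other cells were read on the same arrays. Of 33 other macrophage and myeloid genes, 3 rose in the NOD arrays labelled FO and 0 fell, with 7 at an unadjusted p under 0.05 (limma). Of all probe sets, not only 1 per gene, 0.158% were called higher and 0.00444% lower. The list was chosen with earlier results of these data known, and its genes are named because they were called. These calls are therefore a description. Fcer1g, the signalling chain of Fc receptors, was 2.46 and 1.44 there and at most 0.48 elsewhere, a difference of 2.10 ± 0.27 (limma, adjusted p = 0.00236). Slc11a1, a metal transporter of phagosomes, rose by 2.06 ± 0.26 (limma, adjusted p = 0.00192) and Aif1, a calcium-binding protein of macrophages, by 0.85 ± 0.16 (limma, adjusted p = 0.0482). The median of these 33 genes was only 0.10 and 0.16 in the 2 arrays, and 0.36 in replicate 2 of B6 MZ, its highest value.

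None of the monocyte, neutrophil, dendritic cell, plasmacytoid dendritic cell, T cell, NK cell, erythroid, platelet, plasma cell, endothelial and stromal or B cell genes was called in that comparison (limma). At an unadjusted p under 0.05 stood 2 erythroid genes and 1 each of the plasmacytoid dendritic cell, NK cell, plasma cell and endothelial lists. The monocyte median was -0.14 and -0.02 in the NOD arrays labelled FO, the neutrophil median 0.02 and 0.12, the dendritic cell median 0.00 and -0.04, and the B cell median 0.02 and -0.04. Stab2, an endothelial scavenger receptor, was 0.95 and 0.98 in them and 1.25 in replicate 2 of B6 MZ, and its difference of 1.02 ± 0.25 was not called (limma, adjusted p = 0.287). In replicate 2 of B6 MZ the T cell median was 0.54, the highest of the 24 arrays, and the NK cell median 0.57. The plasma cell median was 0.06 and 0.67 in the NOD arrays labelled FO and reached 2.57 in those labelled T2FO. The part of these cells in the macrophage transcripts was not tested.

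**Figure D4:**
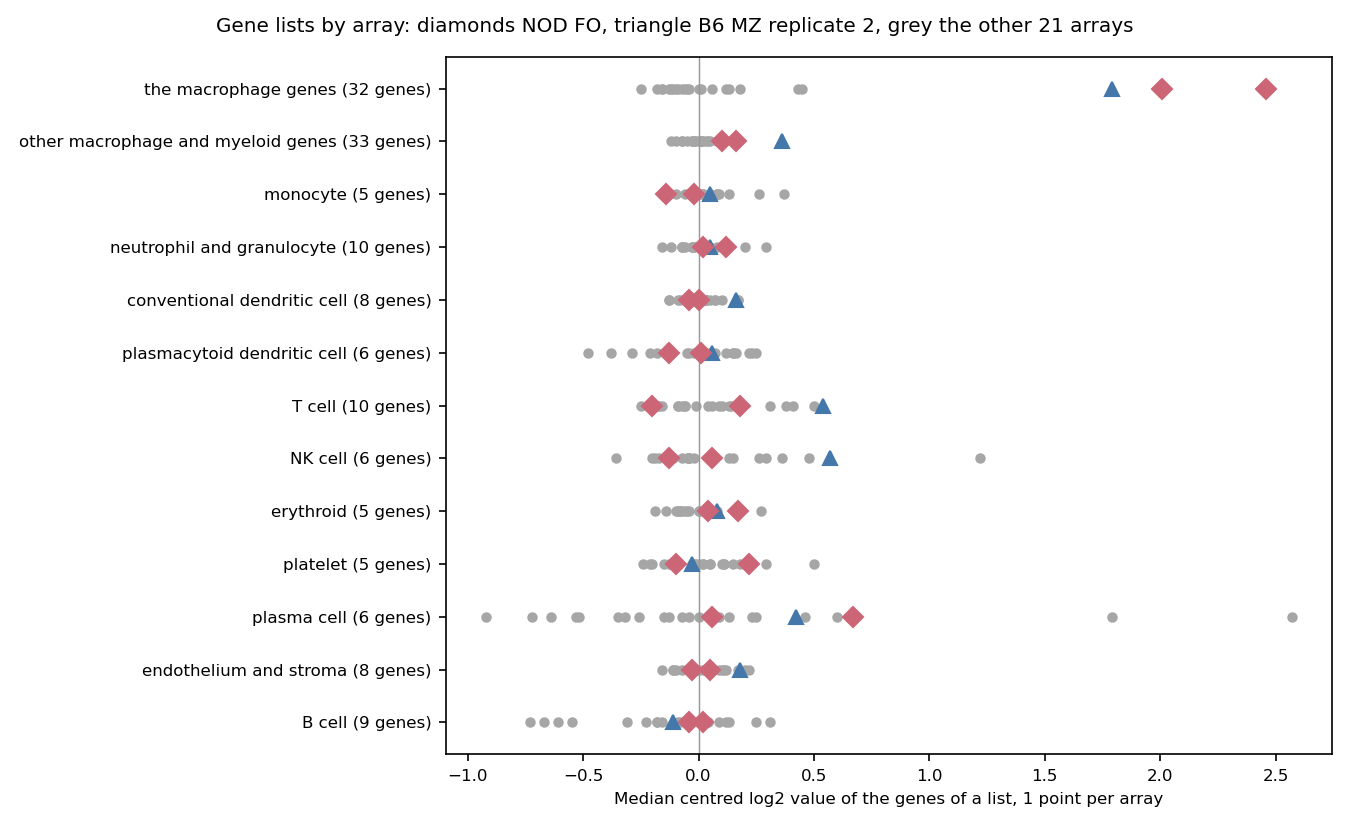
Median centred log2 value (horizontal axis) of each gene list (rows) on each array, with diamonds for the NOD arrays labelled FO, a triangle for replicate 2 of B6 MZ and grey points for the other 21 arrays. The 3 marked arrays stand apart for the 32 macrophage genes (2.46, 2.01 and 1.79) and lie at 0.67 or below in all other lists.

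Likeness to C1q was read as Pearson's r with the mean of C1qa, C1qb and C1qc over the 24 arrays. Of all 18193 genes 39 had an r above 0.8, among them the C1q chains themselves and 13 of the other 29 genes, while 9 of the 32 had an r below 0.5. Outside all lists, Igf1 (r = 0.926), a growth factor, Hfe (0.923), a regulator of iron uptake, Cd302 (0.915), a C-type lectin, Tgfbi (0.914), a matrix protein, and Abcc3 (0.908), a transporter, ranked highest. In the NOD arrays labelled FO, Tgfbi was 2.55 and 2.45 and Cd302 2.14 and 1.68. Replicate 2 of B6 MZ followed with 2.19 and 1.43, and the other 21 arrays reached 1.17 and 0.31. Without these 3 arrays, a choice made after seeing the values, r was 0.753 for Igf1, 0.681 for Hfe, 0.516 for Cd302, 0.707 for Tgfbi and 0.363 for Abcc3, and 5 of the 29 genes and 0 genes outside the set passed 0.8.

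Differences among the 5 NOD groups other than FO did not enter the choice of the genes and could be tested. Of the 47 probe sets, 1 was called (limma F test, Benjamini-Hochberg adjusted), and 1.93% of all probe sets were, so the share of 2.13% is near the background. Another 5 had an unadjusted p under 0.05.

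The called gene was Mpeg1. It was 2.17 and 2.16 in the arrays labelled T1, 0.61 and 0.56 in T2FO, -0.42 and -0.16 in T3, -1.43 and -0.82 in T2MZ and 0.49 and 1.25 in MZ. The arrays labelled T1 were highest and those labelled T2MZ lowest, and group means spanned 3.30 (adjusted p = 0.00655, limma, 2 arrays per group). Without either array labelled T1 it was no longer called.

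Apoe ran from -1.97 and -1.88 in the arrays labelled T1 and -1.92 and -2.12 in MZ to 1.20 and 1.76 in T2FO (limma, adjusted p = 0.0581). Adgre1 was -1.11 and -1.20 in T1, 1.20 and 0.37 in T2FO, and 1.46 and 1.38 in T3 (limma, adjusted p = 0.0586). Spic was 1.69 and 1.75 in T1 and -0.13 and -0.32 in T2FO, with T3, T2MZ and MZ between them (limma, adjusted p = 0.248, and 0.102 for its other probe set). Adamdec1, with 1.40 and 0.66 in T1 and -0.62 and -0.57 in T2FO, had an adjusted p of 0.609 (limma). These 4 genes did not pass the threshold, and unlike in the arrays labelled FO they did not share an order: in the arrays labelled T1, Adgre1 and Apoe were low while Spic and Mpeg1 were high.

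**Figure D5:**
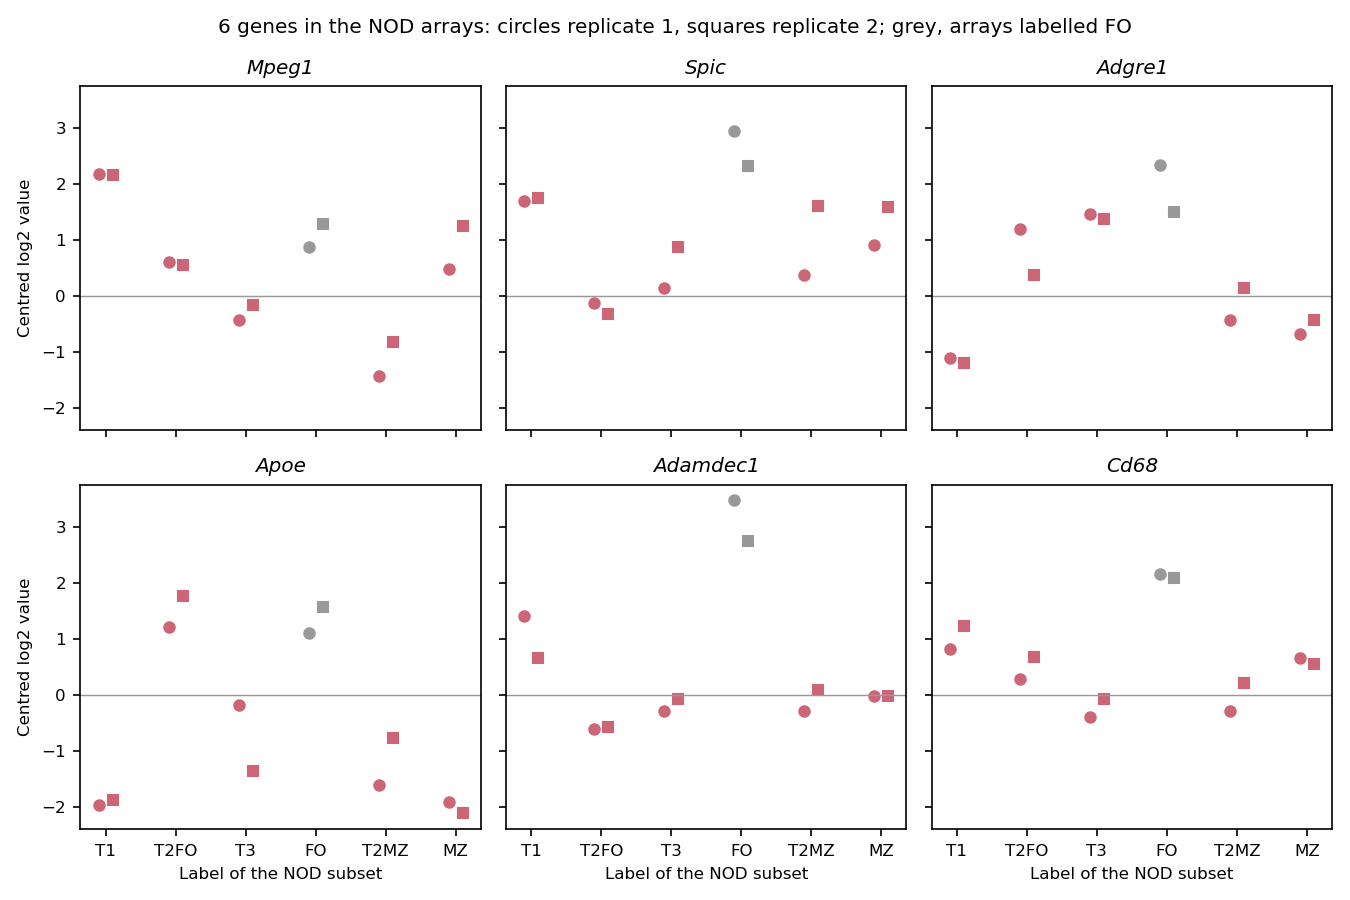
Centred log2 value (vertical axis) of 6 genes on the NOD arrays by label (horizontal axis), circles for replicate 1 and squares for replicate 2, with arrays labelled FO in grey. Mpeg1 and Spic are high and Adgre1 and Apoe low in the arrays labelled T1, with values of 2.17, 1.69, -1.11 and -1.97 in replicate 1.

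Over the 5 subsets other than FO, taken as 2 pool means per strain by replicate number, 1 of the 47 probe sets was called, and 0.784% of all. Apoe was 1.53 ± 0.12 lower in NOD. The median difference, NOD minus B6, was -0.20 over the 47 probe sets and -0.03 over all. Replicate numbers were taken as the pools, which was not settled. The replicate 2 mean of B6 includes MZ replicate 2, whose Nnt value lay in the NOD range. A difference between the B6 experiments is therefore not shown. Leaving out 1 pool leaves 1 pool in that strain, so nothing is read from the counts of those fits.

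Among the 6 B6 groups 1 of 47 probe sets was called, that of Mpeg1, and 1.41% of all (limma F test). Some B6 arrays had entered the choice of the genes, so this count and those of the comparisons between strains are a description and support nothing. Mpeg1 was -1.74 and -1.60 in B6 FO and 0.98 and 1.97 in B6 MZ. Without replicate 1 of B6 MZ, 7 of the 47 were called, and without replicate 2, or without B6 T1 replicate 1 or FO replicate 2, 0 were.

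Paired by label, the difference of Apoe between the strains was not the same in every subset. The NOD labels did not follow the sort markers, so groups of the same label may hold unlike cells. A strain difference that varies by subset is therefore not shown. NOD minus B6 was 2.20 in T2FO, -1.46 in T1, -1.88 in T3, -1.90 in T2MZ and -4.59 in MZ. In B6 MZ the arrays held 1.55 and 3.59, and both NOD arrays labelled MZ lay below -1.9. Without B6 MZ replicate 2, whose Nnt value lay in the NOD range, the difference in MZ was -3.58. Apoe was the 1 probe set of the 47 called in the test of strain by subset, which called 1.15% of all probe sets, and it was not called without any 1 of 8 arrays, both replicates of B6 T2FO and of the NOD arrays labelled T1, T2FO and MZ.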

How the data were processed

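RNA was labelled from the poly(A) tail in 2 rounds of amplification, per the labels. The authors deposited log2 values, obtained with RMA according to what is listed per the submitters' processing notes. No source used here states the base, and 2 was assumed. Every probe set was found centred on its median over the 24 arrays, so a filter on dim probe sets was impossible and a filter on the standard deviation was tried instead. The number of arrays limits the precision.

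Of 45101 probe sets, 64 controls were left out, and 34945 had 1 gene, 932 several and 9160 none in the platform's annotation. Differences were fitted with limma 3.58.1 in R 4.3.3, 1 mean per group over 12 groups, and adjusted over 45037 probe sets by Benjamini-Hochberg. Between strains over 5 subsets, limma was run on 4 pool means. Adjusted p under 0.05 counted as called. P-values rest on 2 arrays per group, and arrays of 1 pool are not independent. Code was tested on simulated data. Figures used matplotlib 3.10.9.

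The genes and lists were chosen with earlier results of these data known. All 32 genes could be named, values on every array were printed for those called by the most variable probe set in the NOD arrays labelled FO and for C1qa, C1qb, C1qc, Itgam, Spic and Csf1r, and others were summarised, except where a comparison turned on them. From each other list up to 4 called genes with the largest difference were named, or up to 2 if none was called. Of the latter only Stab2 is given. The 5 genes outside all lists most like C1q were named. Promoter windows came from RefSeq (GRCm38.p6).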

Additional observations from a re-analysis of the deposited data

Results flagged for a closer look

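Apoe was the only gene of the 32 called in the test of strain by subset (limma F test, adjusted p = 0.0213). That test asked if the NOD minus B6 difference, paired by label, varied between the 5 subsets other than FO. Mpeg1 lay just short of the threshold (limma F test, adjusted p = 0.0545). The call of Apoe was lost when certain single arrays were left out, such as B6 T2FO replicate 1. NOD minus B6 was 2.20 in T2FO and -4.59 in MZ, and -3.58 in MZ without B6 MZ replicate 2, whose Nnt value lay in the NOD range. B6 arrays had entered the choice of the genes, and the NOD subset labels did not follow the sort markers. That the strain difference varies by subset is therefore not shown. The cause was not tested.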

How the results depend on the processing

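The number of the 47 probe sets called in the NOD arrays labelled FO against the other NOD groups was 18, and 28 with only the arrays compared or with array weights. It ran from 5 to 16 when 1 array was left out. Against B6 FO it was 22, and 0 with only the arrays compared, and 11 to 19 with 1 array left out. Between strains over the other subsets it was 1, then 4 with the 20 arrays taken as independent, and 0 to 18 with 1 pool left out. Among the 5 NOD groups it was 1, then 5 with only the arrays compared, 3 with the pool as a random block or the filter on the standard deviation, 4 with the 5' difference as a covariate, array weights or the mean of a gene's probe sets, and 0 to 1 with 1 array left out. Among the B6 groups it was 1, then 0 with only the arrays compared, 2 with the random block or the filter, 4 with the covariate, and 0 to 7 with 1 array left out. For strain by subset it was 1, then 3 with the random block or the covariate, 2 with array weights, 1 probe set per gene, the mean of probe sets or the filter, and 0 to 5 with 1 array left out.

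Replicate numbers were taken as the pools for the pool means, but whether they pair the arrays was not settled. The deviations of same-numbered B6 arrays correlated from -0.62 to 0.873, above 0.1 in 7 of 15 pairs, and those of NOD from -0.042 to 0.507, above 0.1 in 12 of 15. With the replicate number as a block the counts in the order above were 23, 27, 0, 2, 2 and 3. In the NOD arrays labelled FO the block added calls for 6 of the 32 genes by their most variable probe set and lost none. None of the differences of the 32 genes in the NOD arrays labelled FO reversed under the alternatives run, and 14 of 384 leave-one-out values lost their call, all of them without 1 of the arrays labelled FO.

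Only 2 arrays per group, no expression levels and NOD labels at odds with the sort markers limit all values. Whether a centred value lies near background could not be read.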
